A study of Bos taurus with 6 samples.

Results

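The genes of intraflagellar transport (IFT) and of the BBSome were followed here in the testes of immature and mature cattle. They were taken from the table of genes by symbol: every symbol that starts with IFT or BBS and a digit, or with DYNC2, together with KIF3A, KIF3B, KIF3C, KIFAP3, TRAF3IP1, TTC8, ARL6, TTC30A, TTC30B, CLUAP1, WDR19 and WDR35. This gave 34 of the 47249 genes of the table, with 93 transcripts of 108527. By role they are 15 genes of the IFT-B complex, 5 of the IFT-A complex, 4 of the kinesin-2 motors, 1 of the dynein-2 motor, 6 of the BBSome and 3 other BBS genes. DYNC2H1 and BBS1, which belong to the same machines, were not analysed here.

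The samples are untreated testicular tissue of Wandong cattle (Bos taurus), from 3 calves labelled as immature at 3 months of age and 3 bulls labelled as andrologically mature at 3 years. Each library holds total RNA of 1 animal after removal of ribosomal RNA and was prepared with strand information. The files give the level of each gene as FPKM, the fragments per kilobase of transcript relative to all mapped fragments, a unit that divides by length and so allows levels of different genes to be set side by side. Each library is called calf or bull with the number of its label.

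The library labelled calf 3 stood apart, and counts of calls, and changes whose call its removal altered, are therefore given with and without it. Its 5 brain markers (MBP, MOBP, GFAP, SNAP25 and SYT1) summed to 7684 FPKM, against at most 9.28 in any other library. Its 5 Sertoli cell markers summed to 14.8 FPKM, against 1769 in calf 1 and 1433 in calf 2, with WT1 and FSHR listed at 0, and SOX9 made up 13.7 of that sum. Its Leydig cell markers summed to 0.484 FPKM, against 1395 and 1132. The squared Pearson correlation of log10(FPKM + 1) over all genes was 0.970 between calf 1 and calf 2, but 0.704 and 0.712 between calf 3 and these libraries. The values are not counts, and counts could not be recovered from them. The paper lists the clean reads of each library, but the number of fragments behind each value is unknown.

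A cilium or flagellum has no ribosomes of its own, and its parts are built in the cell body and carried along the microtubules of the axoneme by trains of IFT particles. IFT-B, pulled by kinesin-2, moves cargo from the base to the tip, and IFT-A with dynein-2 brings trains back. The BBSome is a coat-like complex that rides on these trains, is recruited to membranes by the GTPase ARL6 and carries membrane proteins out of cilia. In the testis the sperm tail is assembled from the axoneme of the spermatid, and IFT proteins are present in developing spermatids, while primary cilia occur on somatic cells.

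Across the 34 genes, most were at a higher level in bulls than in calves. A gene was called when the adjusted p of limma was below 0.05 and the log2 fold change, the difference between bulls and calves on the scale log2(FPKM + 1), was at least 1 in size. By this rule 25 genes were higher in bulls (73.5%), 1 was lower (2.94%) and 8 were not called. Of all 18115 genes tested, 35.7% were called higher and 9.61% lower. Without calf 3 the numbers were 27 higher (79.4%) and 1 lower, against 37.9% and 13.6% of all genes. The median log2 fold change was 1.46 over the IFT and BBSome genes and 0.43 over all genes tested. The set was chosen with such results known, so these counts describe it and are no test of it.

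The summed level of the 34 genes was 265, 294 and 417 FPKM in the calves and 1027, 1093 and 1027 FPKM in the bulls. That sum made up 0.0249% and 0.0268% of all FPKM in calf 1 and calf 2 and 0.132% to 0.142% in the bulls. In calf 3, which made up 0.0710%, much of the sum came from KIF3A, KIFAP3 and KIF3C, described below. In 28 of the 34 genes every bull lay above every calf, a pattern that 46.1% of all genes tested showed, and in 2 genes every bull lay below every calf, as in 21.3% of all genes. In the other 4 genes the groups overlapped. Without calf 3 the overlap was limited to WDR19, with 31 genes higher in every bull and 2 lower, against 53.5% and 30.9% of all genes tested.

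The sums of FPKM over all genes differed between libraries, from 587066 to 1098715, and the counts depend on the scaling. After quantile normalization 12 genes were called higher (35.3%) and 2 lower, and the median over all genes tested moved from 0.43 to -0.26. At that setting 21.1% of all genes were called higher and 25.1% lower. After upper quartile scaling 14 were called higher (41.2%) and 2 lower, against 28.0% and 20.4% of all genes, with a median of -0.09. All changes below are on the scale as deposited, and some small changes turned in sign with the scaling. In these bulk samples, fewer cells of a type and less RNA per cell cannot be told apart.

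**Figure D1:**
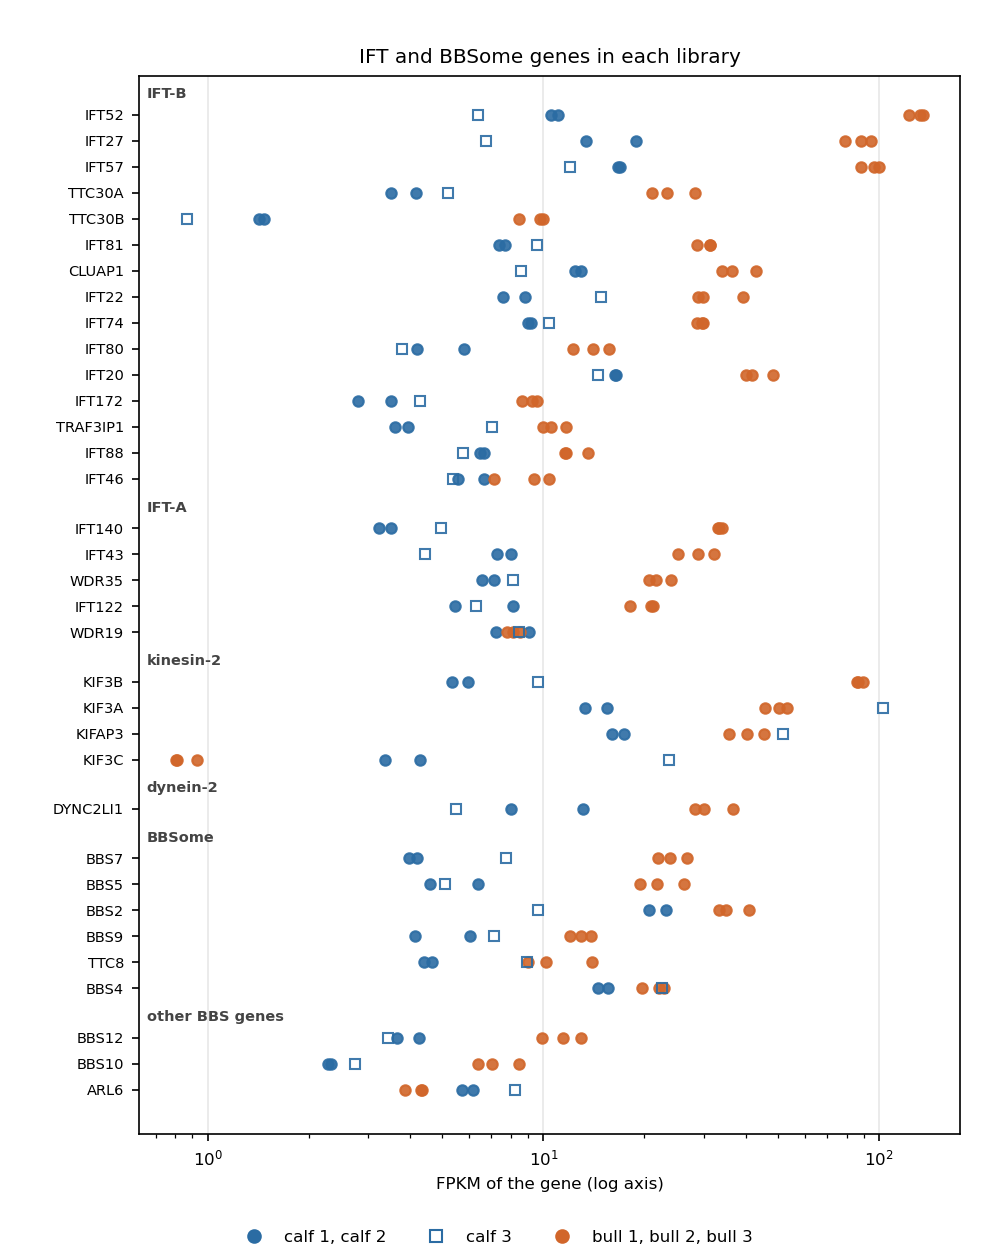
The level of each of the 34 genes in each library, in FPKM on a log axis, grouped by role, with filled blue circles for calf 1 and calf 2, open squares for calf 3 and orange circles for the 3 bulls. The bulls lie above the calves in 28 rows, KIF3C and ARL6 run the other way, and the open square of KIF3A lies at 103 FPKM, to the right of all 3 bulls.

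The IFT-B complex, the carrier of outbound cargo, was higher in bulls in 13 of its 15 genes, none was called lower, and all 15 were higher in every bull than in every calf. Of all genes, 35.7% were called higher and 46.1% had every bull above every calf. Without calf 3 the count was also 13, and after quantile normalization it was 6. The median log2 fold change was 1.60. IFT52, a core subunit that holds other IFT-B proteins together (chromosome 13, 72178837 to 72220316), was at 10.5, 11.1 and 6.40 FPKM in the calves and at 135, 132 and 123 FPKM in the bulls. It had the highest bull level of all 34 genes and, with all libraries, the largest log2 fold change, while without calf 3 that of KIF3B was larger. Its log2 fold change was 3.70 ± 0.22 (SE, adjusted p = 5.17e-05), and 3.47 without calf 3. Among the genes tested its level rose from percentile 72.4 in calf 1 and calf 2 to percentile 97.2 in the bulls.

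IFT27, a small GTPase of the complex that is also needed for BBSome exit from cilia (chromosome 5, 75135020 to 75158505), was at 13.4, 18.8 and 6.76 FPKM in the calves and at 88.5, 94.7 and 79.4 FPKM in the bulls. The groups were far apart, with a log2 fold change of 2.76 ± 0.35 (SE, adjusted p = 0.000986), and 2.39 without calf 3. IFT57, an outer subunit near the kinesin (chromosome 1, 52879903 to 52953508), was at 16.7, 16.9 and 11.98 FPKM in the calves, the highest IFT-B level of calf 1. In the bulls it was at 88.4, 96.3 and 99.8 FPKM, a log2 fold change of 2.58 ± 0.18 (SE, adjusted p = 8.61e-05). IFT52, IFT57 and IFT27 were the highest IFT-B genes in every bull.

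The paralogs TTC30A and TTC30B encode forms of the IFT70 subunit, which binds IFT52. TTC30A was at 3.52, 4.19 and 5.20 FPKM in the calves and 21.0, 28.2 and 23.3 FPKM in the bulls, a log2 fold change of 2.25 ± 0.20 (SE, adjusted p = 0.000207). TTC30B was at 1.43, 1.47 and 0.870 FPKM in the calves and 8.48, 9.99 and 9.77 FPKM in the bulls, a log2 fold change of 2.22 ± 0.19 (SE, adjusted p = 0.000192). The ratio of TTC30A to TTC30B was 2.47 and 2.85 in calf 1 and calf 2 and 2.39 to 2.83 in the bulls, and 5.98 in calf 3. The locus of TTC30A in the table (chromosome 2, 19253022 to 19329531) contains that of TTC30B (19325706 to 19328340), and the division of reads between these near-identical genes is uncertain.

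A further 8 IFT-B genes were called higher. These were IFT81 and IFT74, which form the tubulin-binding pair of the core (log2 fold changes 1.78 and 1.53), CLUAP1 (1.67), the Rab-like IFT22 (1.60), the outer subunits IFT80 (1.43), IFT172 (1.17) and TRAF3IP1 (1.04), and IFT20 (1.40), which also acts at the Golgi. IFT20 was at 16.3, 16.4 and 14.6 FPKM in the calves and 48.2, 41.8 and 40.1 FPKM in the bulls. TRAF3IP1 stood close to the threshold of 1, at 3.62, 3.95 and 7.03 FPKM in the calves and 10, 10.5 and 11.7 FPKM in the bulls (adjusted p = 0.0144), and was 1.29 without calf 3. Its call was lost without calf 1 (0.89), calf 2 (0.94), bull 2 (1.06, adjusted p = 0.0522) or bull 3 (0.99).

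IFT88 and IFT46, both core subunits, were not called. IFT88 was at 6.64, 6.49 and 5.76 FPKM in the calves and 11.6, 13.6 and 11.6 FPKM in the bulls, and its log2 fold change of 0.86 ± 0.15 (SE, adjusted p = 0.00415) missed the size of 1. IFT46 (chromosome 15, 29205690 to 29219880) had the smallest change of the complex, with 6.64, 5.55 and 5.40 FPKM in the calves and 10.4, 9.37 and 7.12 FPKM in the bulls. The log2 fold change of IFT46 was 0.53 ± 0.20 (SE, adjusted p = 0.0628), and it was -0.03 after upper quartile scaling.

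Within the complex the levels were thus not in one proportion in both ages. The ratio of IFT52 to IFT88, both of the core, was 1.59, 1.70 and 1.11 in the calves and 11.6, 9.77 and 10.5 in the bulls. From the lowest to the highest IFT-B gene, levels spanned 11.7-fold and 12.8-fold in calf 1 and calf 2 and 15.3-fold to 17.2-fold in the bulls. Across the 15 genes the order in the mean of calf 1 and calf 2 resembled that in the bull mean (Spearman's rho 0.87 across genes, which share their libraries and are not replicates).

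The IFT-A complex, which serves the return journey and the entry of membrane proteins, was higher in bulls in 4 of 5 genes, also without calf 3, and in 2 after quantile normalization. Of all genes tested, 35.7%, 37.9% and 21.1% were called higher at these settings. IFT140, a core subunit (chromosome 25, 1184871 to 1241910), was at 3.25, 3.51 and 4.94 FPKM in the calves and at 34.0, 33.4 and 33.1 FPKM in the bulls. It was the lowest IFT-A gene of calf 1 and calf 2 and the highest of every bull. Its log2 fold change was 2.83 ± 0.18 (SE, adjusted p = 5.95e-05), and 2.98 without calf 3. The outer subunits IFT43 (1.995) and WDR35 (1.48) and the core subunit IFT122 (1.48) were also called higher, with bull levels from 18.1 to 32.1 FPKM.

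WDR19, the third core subunit of IFT-A (chromosome 6, 58328445 to 58428640), was at 9.04, 7.20 and 8.47 FPKM in the calves and at 8.12, 8.54 and 7.81 FPKM in the bulls. The groups overlapped, the log2 fold change was -0.01 ± 0.16 (SE, adjusted p = 0.967), and its sign turned when single libraries were left out. WDR19 was the highest IFT-A gene of calf 1 and the lowest of every bull. The ratio of IFT140 to WDR19 was 0.359, 0.487 and 0.583 in the calves and 4.19, 3.91 and 4.23 in the bulls.

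The kinesin-2 genes covered the widest range of log2 fold changes among the role groups, from -2.17 to 3.51. Of the 4 genes, 1 was called higher and 1 lower, also after quantile normalization, and 3 and 1 without calf 3. Over all genes the shares were 35.7% and 9.61%, 21.1% and 25.1% after quantile normalization, and 37.9% and 13.6% without calf 3. KIF3A pairs with either KIF3B or KIF3C as a motor dimer, and KIFAP3 links the motor to cargo. KIF3B (chromosome 13, 61747316 to 61787770) was at 5.36, 5.94 and 9.62 FPKM in the calves and at 86.5, 85.6 and 89.6 FPKM in the bulls. The bull mean was 15.4 times the mean of calf 1 and calf 2, the largest ratio among the 34 genes. Its log2 fold change was 3.51 ± 0.22 (SE, adjusted p = 6.22e-05), and 3.73 without calf 3.

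KIF3C, whose product is best known from neurons (chromosome 11, 73459358 to 73495508), was the 1 gene called lower in bulls. It was at 3.37, 4.30 and 23.7 FPKM in the calves and at 0.804, 0.811 and 0.928 FPKM in the bulls. Every bull lay below every calf, and calf 3 lay above the other calves. The log2 fold change was -2.17 ± 0.66 (SE, adjusted p = 0.0333), and -1.38 ± 0.15 (SE, adjusted p = 0.00028) without calf 3. The call was lost without bull 1 (adjusted p = 0.0991), bull 2 (0.0971) or bull 3 (0.0932) and without a filter on low values (0.0528). KIF3C passed that filter only through the calves, since its level was under 1 FPKM in every bull. This fixes its direction on the deposited scale, so its call and adjusted p are no test of that direction. Its percentile among the genes tested was 46.1 in calf 1 and calf 2 and 3.92 in the bulls.

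KIF3A (chromosome 7, 21600405 to 21687757) was at 13.3, 15.4 and 103 FPKM in the calves and at 45.7, 53.0 and 50.3 FPKM in the bulls. The bulls lay above calf 1 and calf 2 and below calf 3, and the log2 fold change was 0.80 ± 0.77 (SE, adjusted p = 0.409). Without calf 3 it was 1.72 ± 0.12 (SE, adjusted p = 4.49e-05), and KIF3A was called higher. KIFAP3 (chromosome 16, 37552133 to 37694428) gave the same picture, at 16.0, 17.4 and 51.8 FPKM in the calves and 35.8, 40.5 and 45.4 FPKM in the bulls. For KIFAP3 the log2 fold change was 0.70 ± 0.46 (SE, adjusted p = 0.238), and 1.23 ± 0.13 (SE, adjusted p = 0.000261) without calf 3, where it was called higher. With all libraries it was -0.06 after quantile normalization. KIF3A, KIF3C and KIFAP3 were the 3 genes of the set with calf 3 more than 2-fold above the mean of calf 1 and calf 2. The part of the brain markers of calf 3 in these levels was not tested.

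Ratios within a library set the motor genes against each other. KIF3B made up 61.4%, 58.0% and 28.9% of the summed level of KIF3B and KIF3C in the calves and 99.1%, 99.1% and 99.0% in the bulls. Relative to KIF3A, KIF3B was at 0.403, 0.385 and 0.0935 in the calves and at 1.89, 1.62 and 1.78 in the bulls. The level of KIFAP3 relative to KIF3A was 1.21 and 1.12 in calf 1 and calf 2, 0.503 in calf 3 and 0.763 to 0.902 in the bulls. These are ratios of RNA within a library, free of the scaling between libraries, and say nothing of protein.

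**Figure D2:**
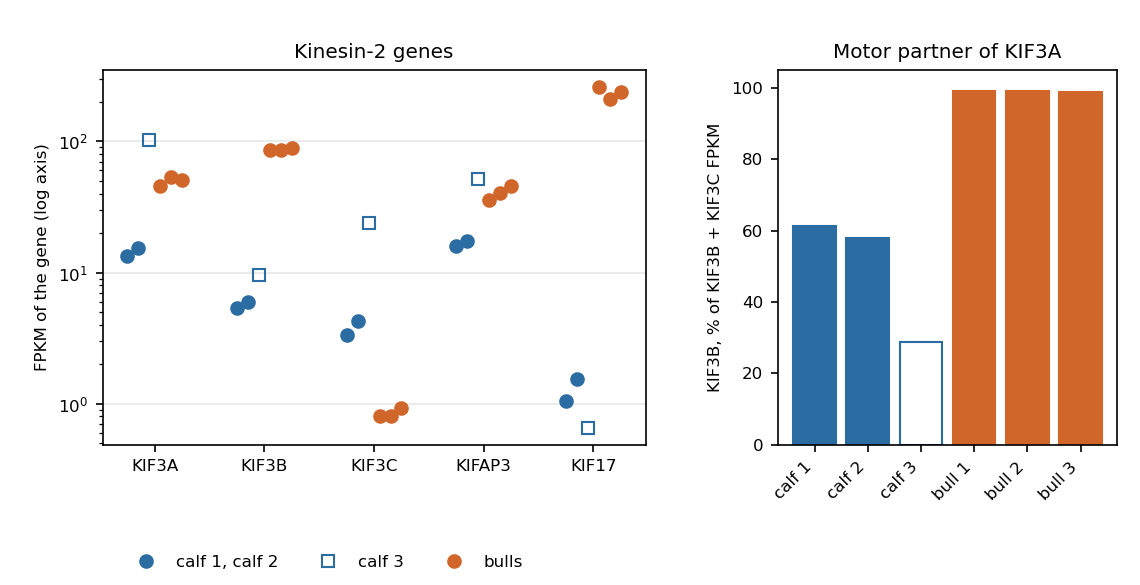
Left, levels of KIF3A, KIF3B, KIF3C, KIFAP3 and KIF17, a kinesin-2 of the other lists described below, in each library, in FPKM on a log axis (filled blue circles for calf 1 and calf 2, open squares for calf 3, orange circles for bulls). Right, KIF3B as a percent of the summed FPKM of KIF3B and KIF3C per library, 28.9% to 61.4% in the calves and 99.0% to 99.1% in the bulls.

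Of the return motor, DYNC2LI1, the light intermediate chain of dynein-2 (chromosome 11, 25999952 to 26038209), was the 1 gene of the set. It was at 8.01, 13.1 and 5.48 FPKM in the calves and at 28.3, 30.2 and 36.7 FPKM in the bulls. The groups were separate, and the log2 fold change was 1.79 ± 0.31 (SE, adjusted p = 0.00347), and 1.53 without calf 3.

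The BBSome was higher in bulls in 4 of 6 genes, by less than IFT-B, with a median log2 fold change of 1.07. The count was also 4 without calf 3, with TTC8 in place of BBS2, and 2 after quantile normalization. Over all genes tested, 35.7%, 37.9% and 21.1% were called higher at these settings. The difference between the BBSome and IFT-B was not tested. BBS7, a subunit of the core with BBS2 and BBS9 (chromosome 6, 3385320 to 3423390), changed most. It was at 3.97, 4.19 and 7.74 FPKM in the calves and at 21.9, 23.9 and 26.9 FPKM in the bulls, a log2 fold change of 2.04 ± 0.26 (SE, adjusted p = 0.000956), and 2.31 without calf 3. BBS5, a subunit that binds phosphoinositides, was called higher (1.88), as was BBS9 (1.07), which fell short of the size of 1 without calf 1 (0.88).

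BBS2 was the highest BBSome gene by mean level (chromosome 18, 24122099 to 24148233), at 20.6, 23.1 and 9.66 FPKM in the calves and 40.9, 34.9 and 33.3 FPKM in the bulls. Calf 3 was its lowest library, and the log2 fold change was 1.07 ± 0.33 (SE, adjusted p = 0.0357) with all libraries and 0.70 ± 0.13 (SE, adjusted p = 0.00272) without calf 3, below the size of 1. With 1 bull left out it was 0.99 without bull 1 (adjusted p = 0.118), 1.097 without bull 2 (0.0951) and 1.13 without bull 3 (0.0871). Without calf 3 after quantile normalization it was -0.072.

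TTC8 and BBS4, both built from tetratricopeptide repeats, were not called. TTC8 was at 4.67, 4.42 and 8.94 FPKM in the calves and 8.999, 13.9 and 10.2 FPKM in the bulls, with a log2 fold change of 0.82 (adjusted p = 0.0631). Without calf 3 it was 1.096 (adjusted p = 0.00253) and called higher. The row of TTC8 includes antisense and other overlapping models, and TTC8-201 made up 54.9% of it in bull 2, against 92.5% in bull 1 and 92.6% in bull 3. The transcript TTC8-201 alone was 0.88 without calf 3 and was not called. BBS4 (chromosome 10, 19486143 to 19532111) had the smallest change, at 14.5, 15.6 and 22.5 FPKM in the calves and 22.1, 22.9 and 19.7 FPKM in the bulls. The log2 fold change of BBS4 was 0.30 ± 0.20 (SE, adjusted p = 0.247), calf 3 lay among the bulls, and the value was -0.35 after quantile normalization. In calf 1 and calf 2, BBS2 and BBS4 were the highest genes of the complex. In the bulls BBS7 and BBS5 lay at 19.5 to 26.9 FPKM, beside 19.7 to 22.9 FPKM for BBS4.

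The other BBS genes split by role. BBS12 and BBS10, chaperonin-like proteins that help to assemble the BBSome, were called higher, also without calf 3 but not after quantile normalization (0.85 and 0.72). BBS12 (chromosome 17, 34936426 to 34948903) was at 4.27, 3.66 and 3.45 FPKM in the calves and 12.9, 11.4 and 9.87 FPKM in the bulls, a log2 fold change of 1.37 ± 0.18 (SE, adjusted p = 0.00103). BBS10 had a log2 fold change of 1.26 (adjusted p = 0.00156).

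ARL6, the GTPase that brings the BBSome to membranes (chromosome 1, 42010599 to 42049950), went the other way, at 5.70, 6.17 and 8.24 FPKM in the calves and 3.88, 4.31 and 4.35 FPKM in the bulls. Every bull lay below every calf. The log2 fold change of -0.56 ± 0.19 (SE, adjusted p = 0.0476) missed the size of 1, and it was -0.42 (adjusted p = 0.0276) without calf 3. After quantile normalization it was -1.103, which was called lower.

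**Figure D3:**
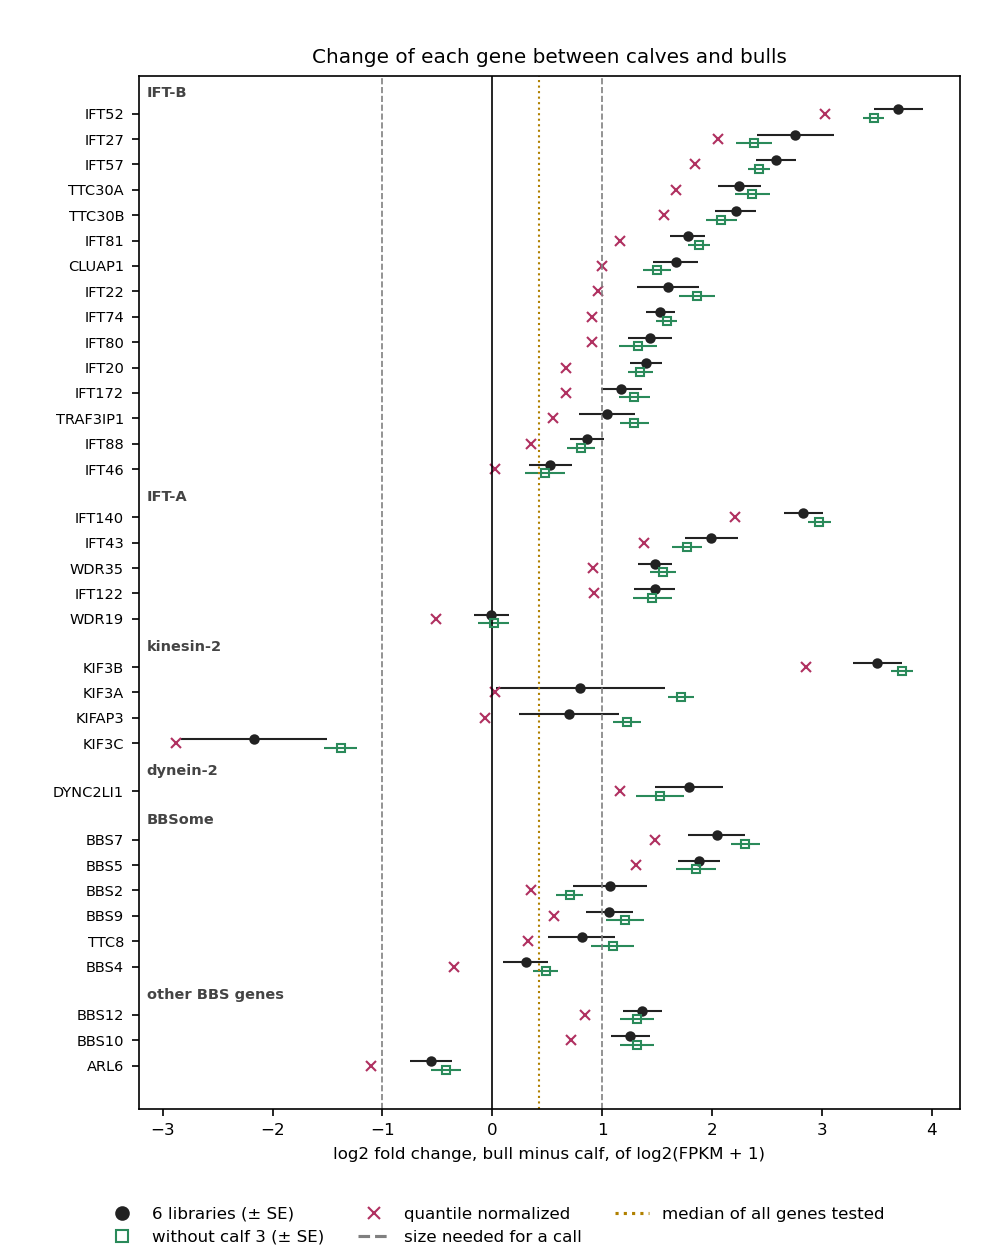
The log2 fold change of each of the 34 genes, bulls minus calves on the scale log2(FPKM + 1), by role, with its SE for all libraries (black circles) and without calf 3 (green squares), and after quantile normalization (crosses). Dashed lines mark the size needed for a call. Most black circles lie to the right of the median of all genes tested, 0.43, and the values with and without calf 3 part most for KIF3A (0.80 and 1.72) and KIF3C (-2.17 and -1.38).

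Ranks among the genes tested gave another view of the same libraries. The percentile was higher in the bulls than in calf 1 and calf 2 for 28 of the 34 genes, with IFT140 going from 43.4 to 85.4 and KIF3B from 55.6 to 95.4. It was lower for WDR19 (65.1 to 54.6), ARL6 (56.7 to 37.5) and KIF3C, and for BBS4, BBS2 and IFT46 it fell by less than 3 points. All 34 genes passed the filter of at least 1 FPKM in at least 3 libraries, and 32 were at 1 FPKM or more in all 6, the exceptions being TTC30B in calf 3 and KIF3C in the bulls. The 34 genes lie on 19 chromosomes and none on X, where 3.66% of the tested Ensembl genes lie. Chromosome 11 holds 4 of them (DYNC2LI1, IFT172, KIF3C and WDR35), of which KIF3C was lower and the other 3 were higher.

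The transcripts of these genes moved as the genes did in most cases, with exceptions. Of the 93 transcripts, 48 passed the filter, 33 of these were called higher (68.8%) and 2 lower (4.17%), against 34.8% and 9.37% of the 23212 transcripts tested. Without calf 3 the numbers were 31 and 1, against 36.1% and 13.1%. Of the 48, 9 were under 1 FPKM in every calf and so passed the filter only through the bulls, which fixes their direction on the deposited scale. No adjusted p is given for these 9. Those described below are given by their levels and, for TCONS_00300505 and TCONS_00070515, also by their log2 fold change. Some of the 9 are among the 33 called higher. The 2 called lower were ARL6-201 and KIF3C-202. KIF3C-202 was under 1 FPKM in every bull and passed the filter only through the calves, which fixes its direction too. In 7 of the 10 genes with at least 2 tested transcripts, transcripts of 1 gene differed by at least 1 in log2 fold change. The share of such genes over the whole table was not computed, so this count describes the set only. In TRAF3IP1, IFT80, ARL6, BBS10 and IFT52, at least 1 of the models compared was under 1 FPKM in every calf. The values of transcripts are estimates that divide the reads of a gene among overlapping models, and names that start with TCONS are models from the authors' own assembly.

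TRAF3IP1 had the plainest split (chromosome 3, 117639171 to 117699247). TRAF3IP1-202 held 97.4%, 99.3% and 99.0% of the gene's FPKM in the calves and 41.3%, 46.2% and 43.6% in the bulls. Its level hardly moved, at 3.52, 3.92 and 6.95 FPKM in the calves and 4.13, 4.86 and 5.10 FPKM in the bulls (log2 fold change 0.02, adjusted p = 0.962), and its sign was negative after quantile normalization and upper quartile scaling. TRAF3IP1-203 was listed at 0 in all 3 calves and was at 5.13, 4.92 and 6.02 FPKM in the bulls.

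IFT80 showed a like split between models of the assembly. TCONS_00006834 (chromosome 1, 107045742 to 107210820) was at 0.00736, 0.0183 and 0 FPKM in the calves and at 6.47, 7.08 and 5.27 FPKM in the bulls, where it made up 52.9%, 45.2% and 37.4% of IFT80. TCONS_00006837, which starts at 107077693, was at 2.94, 4.81 and 2.04 FPKM in the calves and 5.60, 8.04 and 8.49 FPKM in the bulls. The change of TCONS_00006837 stood at the threshold, at 1.01 (adjusted p = 0.0331). Its call was lost without calf 1 (0.98), calf 3 (0.79), bull 2 (0.94) or bull 3 (0.91). Another model, TCONS_00006831, did not pass the filter. It was at 1.23, 0.954 and 1.71 FPKM in the calves and 0.174, 0.553 and 0.286 FPKM in the bulls. This model made up 29.3%, 16.5% and 45.1% of IFT80 in the calves and 1.42%, 3.53% and 2.03% in the bulls.

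The 2 models of ARL6 differed in opposite directions. ARL6-201 was at 5.64, 5.87 and 8.22 FPKM in the calves and 2.59, 2.80 and 2.70 FPKM in the bulls, with a log2 fold change of -1.02 ± 0.20 (SE, adjusted p = 0.00699). It was below the size of 1 without calf 3 (-0.87) and without bull 1 (-0.998). TCONS_00002806 was at 0.0593, 0.302 and 0.019 FPKM in the calves and 1.29, 1.51 and 1.65 FPKM in the bulls. The share of ARL6-201 in the gene was 95.1% to 99.8% in the calves and 62.1% to 66.7% in the bulls.

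In BBS10, TCONS_00300497 was listed at 0 in all calves and was at 1.63, 2.93 and 2.15 FPKM in the bulls, while BBS10-201 was at 1.48, 1.62 and 1.93 FPKM in the calves and 1.93, 2.76 and 2.46 FPKM in the bulls (log2 fold change 0.33, adjusted p = 0.176). The latter was -0.31 after quantile normalization. The shared locus of TCONS_00300497 and TCONS_00300496 starts at 5796916 and that of BBS10-201 at 5827591, both ending at 5831861 on chromosome 5. TCONS_00300496 was at 0.334, 0.281 and 0 FPKM in the calves and 1.77, 1.301 and 1.40 FPKM in the bulls. TCONS_00300505 was at 0.508, 0.382 and 0.829 FPKM in the calves and 1.05, 1.45 and 1.02 FPKM in the bulls, and its log2 fold change of 0.47 was -0.45 after quantile normalization.

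In the other 3 genes, some models were called and others were not. IFT52-201 (3.88, adjusted p = 9.37e-05) held 94.2% to 98.3% of IFT52 in the bulls, while the minor TCONS_00070515 lay at 0.904 to 0.970 FPKM in the calves and 1.91 to 2.02 FPKM in the bulls (0.61, and -0.11 after quantile normalization). IFT22-202 was called higher (1.88, adjusted p = 0.0039) and IFT22-203 was not (-0.03, adjusted p = 0.958), so that the share of IFT22-202 was 66.0% to 83.9% in the calves and 86.2% to 94.8% in the bulls. For CLUAP1, CLUAP1-202 (1.82) and CLUAP1-203 (1.28) were called higher, and CLUAP1-201 was not (0.69, adjusted p = 0.0836). One more transcript, BBS7-201, chosen after its values were seen, was listed at 0 in all calves and was at 3.03, 6.86 and 5.91 FPKM in the bulls, where it made up 13.8%, 28.7% and 22.0% of BBS7.

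**Figure D4:**
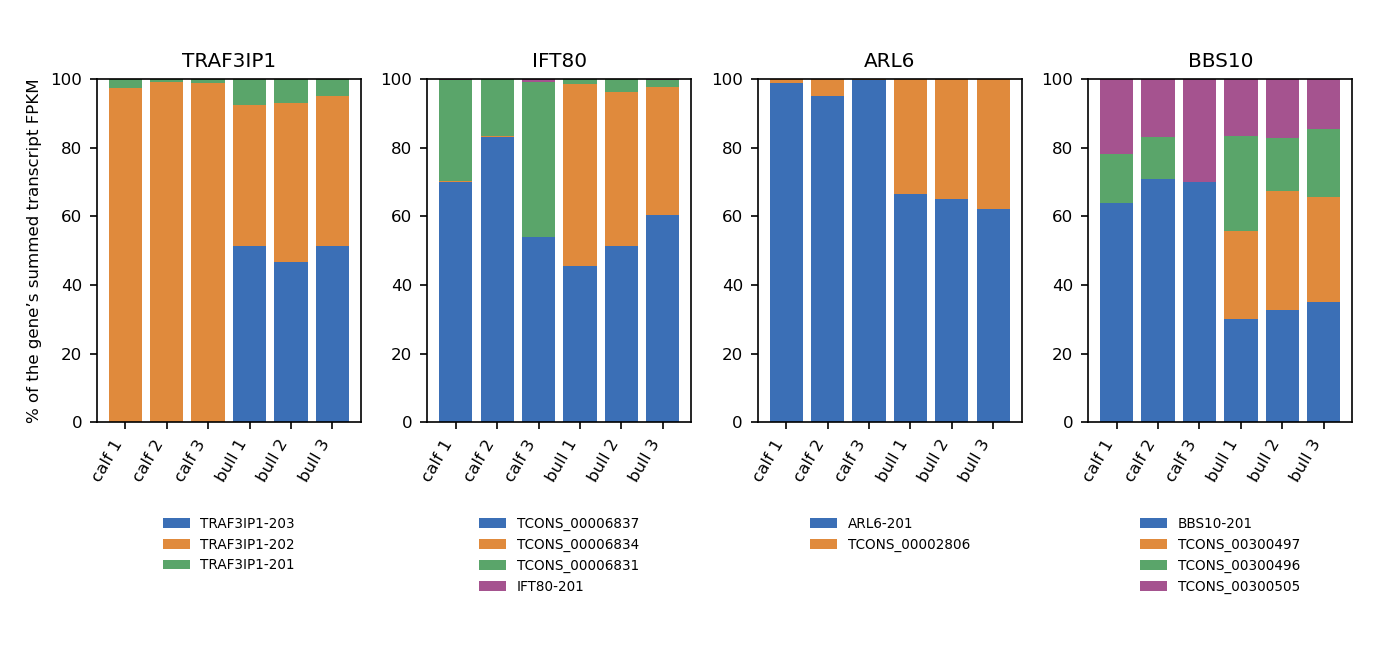
Share of each transcript in the summed FPKM of its gene, in percent, as stacked bars per library for TRAF3IP1, IFT80, ARL6 and BBS10. TRAF3IP1-203 has no share in the calves and 46.8% to 51.5% in the bulls, TCONS_00006834 has 37.4% to 52.9% of IFT80 in the bulls, and ARL6-201 falls from at least 95.1% in the calves to at most 66.7% in the bulls.

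Other genes of the pathway were grouped in lists. For these, the shares over all genes were 35.7% called higher and 9.61% lower, and 21.1% and 25.1% after quantile normalization. Of 14 genes tested that encode subunits or regulators of the same machines under other names, 9 were called higher (64.3%) and 0 lower, with a median log2 fold change of 1.58. The counts were also 9 and 0 without calf 3, and 7 and 2 after quantile normalization. KIF17, the kinesin-2 that works as a homodimer, was at 1.05, 1.54 and 0.658 FPKM in the calves and at 259, 211 and 237 FPKM in the bulls, with a log2 fold change of 6.85 ± 0.20 (SE, adjusted p = 5.01e-06). In the bulls it stood at 3.99 to 5.66 times the level of KIF3A, and in the calves at no more than 0.0996 times. The other 8 were the dynein light chains DYNLRB2 (3.25), TCTEX1D2 (3.04) and DYNLL1 (1.51), the BBSome regulator LZTFL1 (2.86), the IFT-B subunits TTC26 (1.86) and HSPB11 (1.75), and the dynein-2 intermediate chains WDR34 (1.64) and WDR60 (1.31). The lowest value was that of DYNLT3, a dynein light chain (-0.89), which was not called.

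Of 19 cargo adaptors, small GTPases and kinases of the cilium, 7 were called higher and 1 lower, with a median of 0.40. The 36.8% called higher and the median were near those of all genes (35.7% and 0.43). The counts were 7 and 1 without calf 3, where RAB23 (-1.06) took the place of ICK, and 6 and 4 after quantile normalization. The kinase MAK, first known from male germ cells, was at 0.576, 1.20 and 0.735 FPKM in the calves and 84.6, 88.7 and 103 FPKM in the bulls (5.67, adjusted p = 6.56e-06). Its relative ICK was called lower, at 9.37, 6.75 and 8.50 FPKM in the calves and 3.21, 3.68 and 3.84 FPKM in the bulls. The log2 fold change of ICK was -1.0004 ± 0.19 (SE, adjusted p = 0.00483), at the edge of the size required, and the call was lost without calf 1 (-0.91), calf 3 (-0.97) or bull 1 (-0.94).

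Of 18 genes tested of the transition zone, the gate at the base of the cilium, 11 were called higher (61.1%) and 0 lower, with a median of 1.14. The counts were 11 and 1 without calf 3 and 5 and 2 after quantile normalization. B9D1, of the MKS module, changed most, at 13.97, 16.7 and 4.96 FPKM in the calves and 171, 144 and 133 FPKM in the bulls (3.68, adjusted p = 0.000656), and CC2D2A had the lowest value (-0.96), which was not called, and was called lower without calf 3 (-1.04, adjusted p = 0.000686). Of 7 transcription factors of ciliogenesis tested, all were called higher, with a median of 2.52, but FOXJ1, GMNC and TP73 were under 1 FPKM in every calf and passed the filter only through the bulls, and CCNO and MCIDAS did not pass it. After quantile normalization 5 were called. TP73 (1.08) was not called without calf 3 (0.93) and was -0.036 after quantile normalization. RFX2 had the largest log2 fold change with all libraries, at 6.42, 7.02 and 3.58 FPKM in the calves and 81.0, 87.4 and 87.3 FPKM in the bulls (3.73, adjusted p = 6.67e-05). Without calf 3 it was 3.48, below the 4.23 of RFX4, which was at 0.0119, 0.054 and 7.69 FPKM in the calves and 18.5, 15.0 and 22.1 FPKM in the bulls. RFX4 was 3.20 with all libraries, and its call was lost without calf 1 (adjusted p = 0.0605), calf 2 (0.0617), bull 1 (0.0703), bull 2 (0.0597) or bull 3 (0.0756). It reached 1 FPKM in no calf but calf 3, so it too passed the filter only through the bulls. FOXJ1 was at most 0.251 FPKM in the calves and 8.57 to 11.3 FPKM in the bulls.

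**Figure D5:**
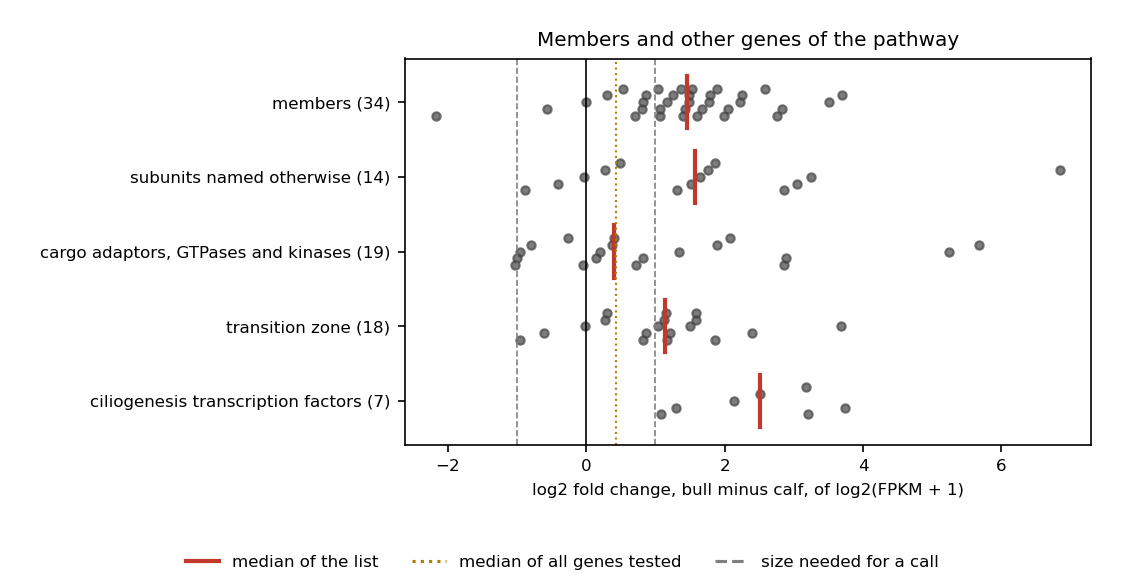
Log2 fold changes, bulls minus calves on the scale log2(FPKM + 1), of the 34 IFT and BBSome genes and of 4 lists of other genes of the pathway, 1 point per gene, with the median of each list in red, the median of all genes tested dotted and the size needed for a call dashed. The medians are 1.46, 1.58, 0.40, 1.14 and 2.52 from top to bottom, and the point farthest right is KIF17.

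Markers of some cell types moved between the groups as well. The 4 spermatid markers (ACRV1, TNP1, PRM1 and SPACA1) summed to at most 2.54 FPKM in the calves and to 12035 to 13650 FPKM in the bulls, and the 4 spermatocyte markers to 2.70 to 14.7 and 181 to 221 FPKM. The 5 Sertoli cell markers summed to 113 to 144 FPKM in the bulls, below calf 1 and calf 2. None of them was called with all libraries, and all 5 were called lower without calf 3. The 3 peritubular myoid markers summed to 11.1 to 20.2 FPKM in the calves and 47.6 to 56.5 FPKM in the bulls, with MYH11 (1.99) and ACTA2 (1.80) called higher and CNN1 not (0.85). Of the 4 spermatogonia markers, DDX4 was called higher (4.53) and ZBTB16 lower (-1.93), and UCHL1 and GFRA1 were not called. None of the Leydig cell or endothelial markers was called, with or without calf 3. Of the 2 macrophage markers tested, CSF1R was called lower (-1.76) and CD163 was not called. The 6 markers of multiciliated epithelium summed to at most 2.67 FPKM in the calves and to 38.2 to 59.4 FPKM in the bulls. FOXJ1, CFAP43, SNTN and DNAH9 of that list were called higher, and MCIDAS and CCNO were at most 0.0961 FPKM in any library. FOXJ1, CFAP43 and SNTN were under 1 FPKM in every calf and passed the filter only through the bulls, which fixes their direction. The part of these cell types in the levels of the IFT and BBSome genes was not tested.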

How the data were processed

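Per the labels, total RNA of each testis was depleted of ribosomal RNA and made into strand-specific libraries. The authors mapped reads with TopHat2 and assembled transcripts with StringTie, and deposited FPKM per gene and transcript. Which tool gave these FPKM is not given in the sources used here. FPKM includes fragments of linear and circular RNA.

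Models were fitted in limma 3.58.1 under R 4.3.3, and figures drawn with matplotlib 3.10.9 under Python 3.11.15. The scale was log2(FPKM + 1), which understates changes of low genes. Features with at least 1 FPKM in at least 3 of 6 libraries were fitted with limma (2 groups, empirical Bayes with a trend, two-sided), with Benjamini-Hochberg adjustment over all features tested. The procedure was tested on simulated data. There is 1 library per animal.

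All genes of the set were named. Every library's value was given for the largest and smallest change and the highest mean of each role, for genes called lower and for paralogs, and for transcripts of genes whose tested transcripts differed by 1 or more. A few others were added after their values were seen. Of the other lists, the largest change in each direction was named. The members and lists were chosen with earlier results of these data known. A gene of a marker list is not reported here.

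The stated assembly is UMD3.1.1, but all 34 loci overlapped the gene of the same name in RefSeq's ARS-UCD2.0 table. Positions are those of the deposited table, on an ARS-UCD assembly. Gene rows of IFT46, IFT52, IFT80, IFT81, IFT88, IFT172, TTC30A, WDR19, DYNC2LI1, TTC8, ARL6, BBS10 and BBS12 include assembled or antisense models.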

Additional observations from a re-analysis of the deposited data

How the results depend on the processing

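With 3 animals a group and no counts, small changes and the depth behind low values cannot be judged. Over 14 alternatives, of 476 values of the 34 genes 406 kept their direction and call, 51 lost the call, 8 gained it and 11 changed sign, and the causes were not tested. IFT52, IFT27, IFT57, TTC30A, TTC30B, IFT81, IFT140, IFT43, KIF3B, BBS7 and BBS5 (11 genes) were called higher in all 14.

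Genes of the set called higher numbered 12 after quantile normalization, also without calf 3 (a combination chosen after seeing the data), and 14 after upper quartile scaling, and 23 to 27 with 1 library left out. Those called lower numbered 0 without the filter, 2 under either scaling and 0 to 1 with 1 library left out, 0 for each bull. Their transcripts called higher numbered 18, 19 and, without calf 3 after quantile normalization, 17. Those called lower numbered 1 without the filter and with array weights, and 0 to 2 with 1 library left out, 0 without bull 1 and 1 without calf 3, bull 2 or bull 3. Shares over all transcripts are given above only for all libraries and without calf 3. Of all genes, 3827 were called higher and 4538 lower after quantile normalization, 3701 lower after upper quartile scaling, and 4062 and 5275 without calf 3 after quantile normalization. With 1 library left out, 33.3% to 37.9% of all genes were called higher and 6.72% to 13.6% lower. The share called lower was 6.72% to 7.17% with a bull left out and 3.54% without the filter.

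Among the genes of the set and their transcripts, signs turned for values not called with all libraries, and for BBS2, which was called higher (1.07). After quantile normalization these were BBS4 (-0.35), KIFAP3 (-0.062), BBS10-201 (-0.31), TCONS_00300505 (-0.45), TCONS_00070515 (-0.11) and TRAF3IP1-202 (-0.53). After upper quartile scaling they were BBS4 (-0.30), IFT46 (-0.030), BBS10-201 (-0.10) and TRAF3IP1-202 (-0.52). Without calf 3 after quantile normalization they were BBS2 (-0.072), BBS4 (-0.19), IFT46 (-0.029), BBS10-201 (-0.21), TCONS_00300505 (-0.33), CLUAP1-201 (-0.10), TCONS_00070515 (-0.046) and TRAF3IP1-202 (-0.27). WDR19 was 0.011 with array weights. With 1 library left out, WDR19 ranged from -0.092 to 0.054 (above 0 without calf 1, calf 3 or bull 3), IFT22-203 from -0.49 to 0.25 (above 0 without calf 2, bull 1 or bull 3) and TRAF3IP1-202 from -0.14 to 0.27 (below 0 without calf 1, calf 2, bull 2 or bull 3).

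Calves and bulls share replicate numbers that name different animals. Deviations of same-numbered libraries correlated at 0.0277, 0.0246 and 0.0341, and those of differently numbered libraries at -0.0487 to 0.0221. With so few libraries, these values cannot decide whether a number marks a shared step of processing. With a replicate block, 25 genes of the set were called higher and 1 lower, and 6437 and 1691 of all genes.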
